A study of Homo sapiens with 10 samples.

Results

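The 50 genes described here encode the sarcomere of striated muscle and the proteins that build it. They were chosen as a list of symbols by role, and all 50 were found among the 23228 genes of the count table. RNA was sequenced from RD, an established rhabdomyosarcoma cell line, in 10 libraries that fell into 5 groups of 2. One group received 300 nM SCH772984, an inhibitor of the kinases ERK1 and ERK2, for 24 h, and its control group received DMSO for 24 h. A pair of groups received NRAS siRNA 1 or NRAS siRNA 2, each at 10 nM for 48 h, and their control group received a nonspecific siRNA for 48 h. The siRNAs were delivered with Lipofectamine RNAiMAX, and the drug and DMSO cells were not described as transfected. The labels do not say that the replicates came from separate cultures, so a p-value here reflects how far libraries of a group differ, and that spread may be technical only.

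A sarcomere slides thin filaments past thick filaments. The thick filament is made of myosin heavy chains with their light chains, and M-line proteins tie thick filaments together. The thin filament is actin wound with tropomyosin and troponin, the calcium switch of contraction, and the Z-disc anchors it. Muscle precursors carry little of this machinery, and it is switched on as myoblasts differentiate under MYOD1 and myogenin. Rhabdomyosarcoma is a tumour that resembles skeletal muscle stalled before that step, and RD cells are widely used as a model of it.

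The libraries held 23224063 to 30768970 counts assigned to genes. Levels are given in CPM, the usual depth-scaled count, on the normalised library size of the fit, and 3 counts in a library equalled 0.0952 to 0.132 CPM. Tests were edgeR quasi-likelihood tests on all 10 libraries with Benjamini-Hochberg adjustment over 14761 genes, and a gene was called at an adjusted p under 0.05. NRAS stood at 52.4 and 52.2 CPM with siRNA 1 and at 51.0 and 48.0 CPM with siRNA 2, against 220 and 272 CPM with nonspecific siRNA. DUSP6, a target and phosphatase of ERK, stood at 13.5 and 9.28 CPM with SCH772984, against 292 and 265 CPM with DMSO. The defining muscle factors were nearly absent in every library: MYOD1 had 0 to 5 counts, MYOG 0 to 3 counts and MYF5 none, while PAX3 had 258 to 393 counts and MEF2C 781 to 1374 counts. The line is therefore called RD here by its label only.

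Counting set a limit for many members. Of the 50 genes, 25 had enough counts to be tested and 25 did not. Of those not tested, 13 never exceeded 3 counts in a library: MYH1, MYH2, MYH6, MYH8, MYL1, MYLPF, MYBPH, MYOT, CSRP3, LMOD2, LMOD3, UNC45B and SMYD1. MYH1, a fast adult myosin heavy chain, had 0 counts in all 10 libraries, and MYH8, the perinatal heavy chain, had 1 count in 1 library. The other 12 untested genes, MYH7, MYL2, MYBPC1, MYBPC2, MYOM3, ACTA1, TNNC2, TNNI2, TNNI3, NEB, NEBL and MYOZ2, reached 4 to 15 counts in at least 1 library. A further 5 genes, MYL3, MYL4, ACTC1, TNNT2 and MYOZ1, were tested only because of their counts in the SCH772984 libraries, so they had to differ, and 20 genes would have been tested without those libraries too.

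**Figure D1:**
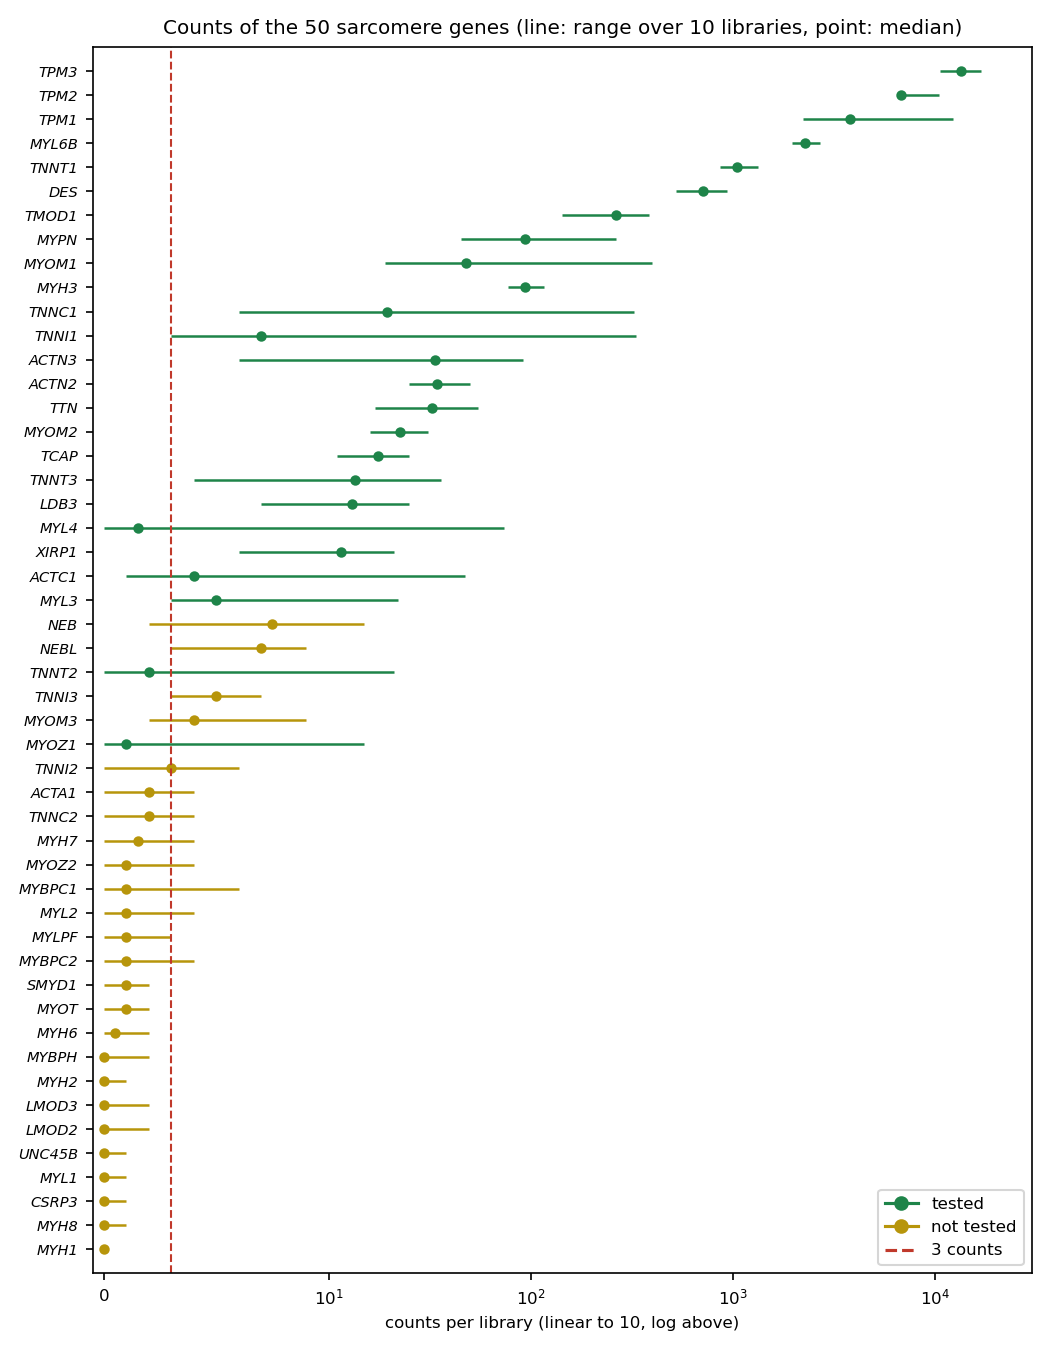
Counts per library of the 50 genes, with a line for the range over 10 libraries and a point for the median; the axis is linear to 10 and logarithmic above. Genes in green were tested and genes in ochre were not, and the dashed line marks 3 counts. TPM3 reached 16847 counts in a library while MYH1 had 0 in all of them.

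A few genes carried most of the counts. TPM1, TPM2, TPM3 and MYL6B together made up 90.3% and 91.2% of the summed CPM of the 50 genes with SCH772984, against 91.2% and 93.0% with DMSO. These genes also have products outside striated muscle. Per kilobase of exon, which allows genes to be compared, the DMSO mean was highest for TPM2 at 96.4 CPM per kb, then TPM3 at 70.0 and MYL6B at 26.1 CPM per kb. TNNT1 followed at 19.5, TPM1 at 10.6 and DES at 8.97 CPM per kb. With SCH772984 TPM1 stood at 28.7 CPM per kb, against 10.6 CPM per kb with DMSO, and TNNC1 stood at 7.99 CPM per kb, against 0.681 CPM per kb with DMSO. Members with at least 1 CPM in both libraries numbered 15 with SCH772984 and 10 with DMSO.

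With SCH772984 the troponins TNNI1, TNNC1 and TNNT3, the M-line gene MYOM1, the tropomyosin TPM1 and the alpha-actinin ACTN3 rose, while 5 of the 6 myosin heavy chains had at most 4 counts in any library. Of the 25 tested genes, 11 passed as higher and 3 as lower with SCH772984; 5 of the 11, ACTC1, MYL3, MYL4, TNNT2 and MYOZ1, are those tested only through their SCH772984 counts. Over all tested genes 28.0% were called, 13.2% higher and 14.8% lower. The median log2 fold change of the 25 genes was 0.54, against 0.00 over all genes. That median includes the 5 genes tested only through their SCH772984 counts, at 2.04 to 5.38, which pull it upward. Of the 20 genes tested without help from the SCH772984 libraries, 6 rose and 3 fell. Leaving out 1 library at a time gave 6 to 15 called genes, with 6 without SCH772984 replicate 1 and 9 without DMSO replicate 2; ACTC1, MYL4, MYOM1, TNNC1, TNNI1 and TPM1 passed every time. In these bulk samples, fewer cells of a type and less RNA per cell cannot be told apart.

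Of the 8 troponins 5 were tested and 4 of these were higher, among them TNNT2, which was tested only through the SCH772984 libraries; without it 3 of 4 were higher. TNNI1, the slow skeletal inhibitory subunit, had 10.5 and 11.2 CPM with SCH772984, against 0.264 and 0.152 CPM with DMSO, a log2 fold change of 5.70 (SE 0.33, edgeR adjusted p = 4.57e-06). TNNC1, the calcium-binding subunit of slow and cardiac muscle, had 7.61 and 11.1 CPM with SCH772984, against 0.792 and 0.797 CPM with DMSO (log2 fold change 3.55, SE 0.27, edgeR adjusted p = 2.16e-05). Both genes were above all other groups in both SCH772984 libraries. TNNT3, the fast tropomyosin-binding subunit, had 1.37 and 0.819 CPM with SCH772984, against 0.264 and 0.152 CPM with DMSO (log2 fold change 2.38, SE 0.53, edgeR adjusted p = 0.00879). TNNT2, the cardiac tropomyosin-binding subunit, had 16 and 21 counts with SCH772984, against 1 and 6 counts with DMSO, a ratio of 4.84 per library total (95% interval 2.13 to 12.9, counting error only). The fitted log2 fold change of TNNT2 was 2.19 (SE 0.62, edgeR adjusted p = 0.0258), and DESeq2 gave an adjusted p of 0.145. The call of TNNT2 was lost without SCH772984 replicate 1 (edgeR adjusted p = 0.0829), SCH772984 replicate 2 (0.100) or DMSO replicate 1 (0.123), and that of TNNT3 without SCH772984 replicate 1 (0.0711) or DMSO replicate 2 (0.0853). TNNT1, the slow tropomyosin-binding subunit and the most abundant troponin, had 32.6 and 34.5 CPM with SCH772984, against 42.3 and 42.2 CPM with DMSO (edgeR adjusted p = 0.0773). Of the troponins not tested, TNNI3 had 9 counts in each of the SCH772984 and DMSO groups.

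Among the actins, ACTC1, the cardiac form that is also made in embryonic skeletal muscle, had 19 and 47 counts with SCH772984, against 3 and 2 counts with DMSO. That is a ratio of 12.1 (95% interval 4.93 to 38.5, counting error only), with a fitted log2 fold change of 3.47 (SE 0.61, edgeR adjusted p = 0.00262). ACTA1, the adult skeletal form, was not tested, with 4 and 3 counts with SCH772984 and 1 and 2 counts with DMSO. The 3 tropomyosins went different ways. TPM1 rose to 324 and 417 CPM with SCH772984, against 115 and 156 CPM with DMSO (log2 fold change 1.45, SE 0.17, edgeR adjusted p = 0.000321). TPM3 was lower, at 402 and 458 CPM with SCH772984, against 535 and 639 CPM with DMSO (log2 fold change -0.45, SE 0.11, edgeR adjusted p = 0.0152), and it was not called without SCH772984 replicate 1 (edgeR adjusted p = 0.130) or DMSO replicate 2 (0.150). TPM2 had 323 and 356 CPM with SCH772984 and 284 and 341 CPM with DMSO, which overlap (log2 fold change 0.12, edgeR adjusted p = 0.426).

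In the thick filament, MYL4, the embryonic and atrial essential light chain, had 32 and 74 counts with SCH772984, against 1 count in each DMSO library. The ratio was 48.5 (95% interval 13.1 to 406, counting error only) and the fitted log2 fold change 5.38 (SE 0.79, edgeR adjusted p = 0.00104). MYL3, the slow and ventricular light chain, had 21 and 22 counts with SCH772984, against 6 and 3 counts with DMSO (fitted log2 fold change 2.04, SE 0.46, edgeR adjusted p = 0.00974). MYL3 was not called by DESeq2 (adjusted p = 0.0687), nor by edgeR without SCH772984 replicate 1 (0.0552) or DMSO replicate 2 (0.0985). MYL3 overlaps PTH1R on the opposite strand in GENCODE 29, and PTH1R, looked at after its values were seen, stood at 2.47 and 2.29 CPM with SCH772984, against 1.23 and 0.569 CPM with DMSO. Whether counting used strand is not stated in the labels or notes, and without strand reads of this pair cannot be told apart. The same holds for MYOM1, ACTC1, TPM1, MYL6B, TTN, DES and TMOD1, which overlap annotated antisense genes. It holds too for TNNI1, which overlaps an opposite-strand pseudogene by 387 bases. ACTN3 likewise overlaps an opposite-strand noncoding RNA gene, by 1519 bases. MYL6B, a light chain of slow and non-muscle cells that overlaps MYL6 on the same strand, had 83.6 and 84.3 CPM with SCH772984 and 86.3 and 83.9 CPM with DMSO. MYOM1, the myomesin of the M-line, had 9.82 and 13.5 CPM with SCH772984, against 1.41 and 1.37 CPM with DMSO (log2 fold change 3.07, SE 0.32, edgeR adjusted p = 0.000131). MYH3, the embryonic heavy chain and the only heavy chain tested, had 2.93 and 3.31 CPM with SCH772984 and 3.48 and 4.40 CPM with DMSO (log2 fold change -0.34, SE 0.20, edgeR adjusted p = 0.242).

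At the Z-disc 2 of 8 tested genes rose and 1 fell, against 13.2% higher and 14.8% lower over all genes. MYOZ1 was tested only through the SCH772984 libraries, and without it 1 of 7 rose and 1 fell, near those shares. ACTN3, the fast-fibre alpha-actinin, had 3.46 and 1.67 CPM with SCH772984, against 0.484 and 0.493 CPM with DMSO (log2 fold change 2.37, SE 0.65, edgeR adjusted p = 0.0227). MYOZ1, a calcineurin-binding protein of fast fibres, had 11 and 15 counts with SCH772984, against 2 and 1 counts with DMSO (ratio 7.94, 95% interval 2.43 to 41.0, counting error only; edgeR adjusted p = 0.0151). MYPN, which links nebulin and alpha-actinin, fell to 1.71 and 2.12 CPM with SCH772984, against 5.46 and 10.0 CPM with DMSO (log2 fold change -2.02, SE 0.52, edgeR adjusted p = 0.0171). The MYPN levels also spread widely within the other groups, at 2.57 and 6.55 CPM with nonspecific siRNA. Replicate 2 was the higher one in all 5 groups, and no label says that replicate numbers pair samples. DES, the muscle intermediate filament, had 34.1 and 30.4 CPM with SCH772984 and 24.6 and 19.7 CPM with DMSO (log2 fold change 0.54, SE 0.18, edgeR adjusted p = 0.0523). TMOD1, which caps the pointed end of thin filaments, fell by 0.72 on the log2 scale (SE 0.23, edgeR adjusted p = 0.0419), a call that was lost in 8 of 16 alternatives. Without DMSO replicate 1 its log2 fold change was -0.27 (edgeR adjusted p = 0.316); the other libraries whose loss ended the call were both SCH772984 replicates, both siRNA 1 replicates and nonspecific siRNA replicate 1 (0.0528 to 0.174). ACTN3 was not called without SCH772984 replicate 1 (edgeR adjusted p = 0.162), DMSO replicate 1 (0.0842) or DMSO replicate 2 (0.122). MYOZ1 and MYPN were not called without SCH772984 replicate 1 (0.0525 and 0.118), SCH772984 replicate 2 (0.0689 and 0.0660) or DMSO replicate 2 (0.125 and 0.144). TTN, the titin spring, had 0.647 and 0.682 CPM with SCH772984 and 1.94 and 0.645 CPM with DMSO (edgeR adjusted p = 0.181). NEB, the nebulin ruler, had 15 and 4 counts with SCH772984 and 7 and 8 counts with DMSO.

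**Figure D2:**
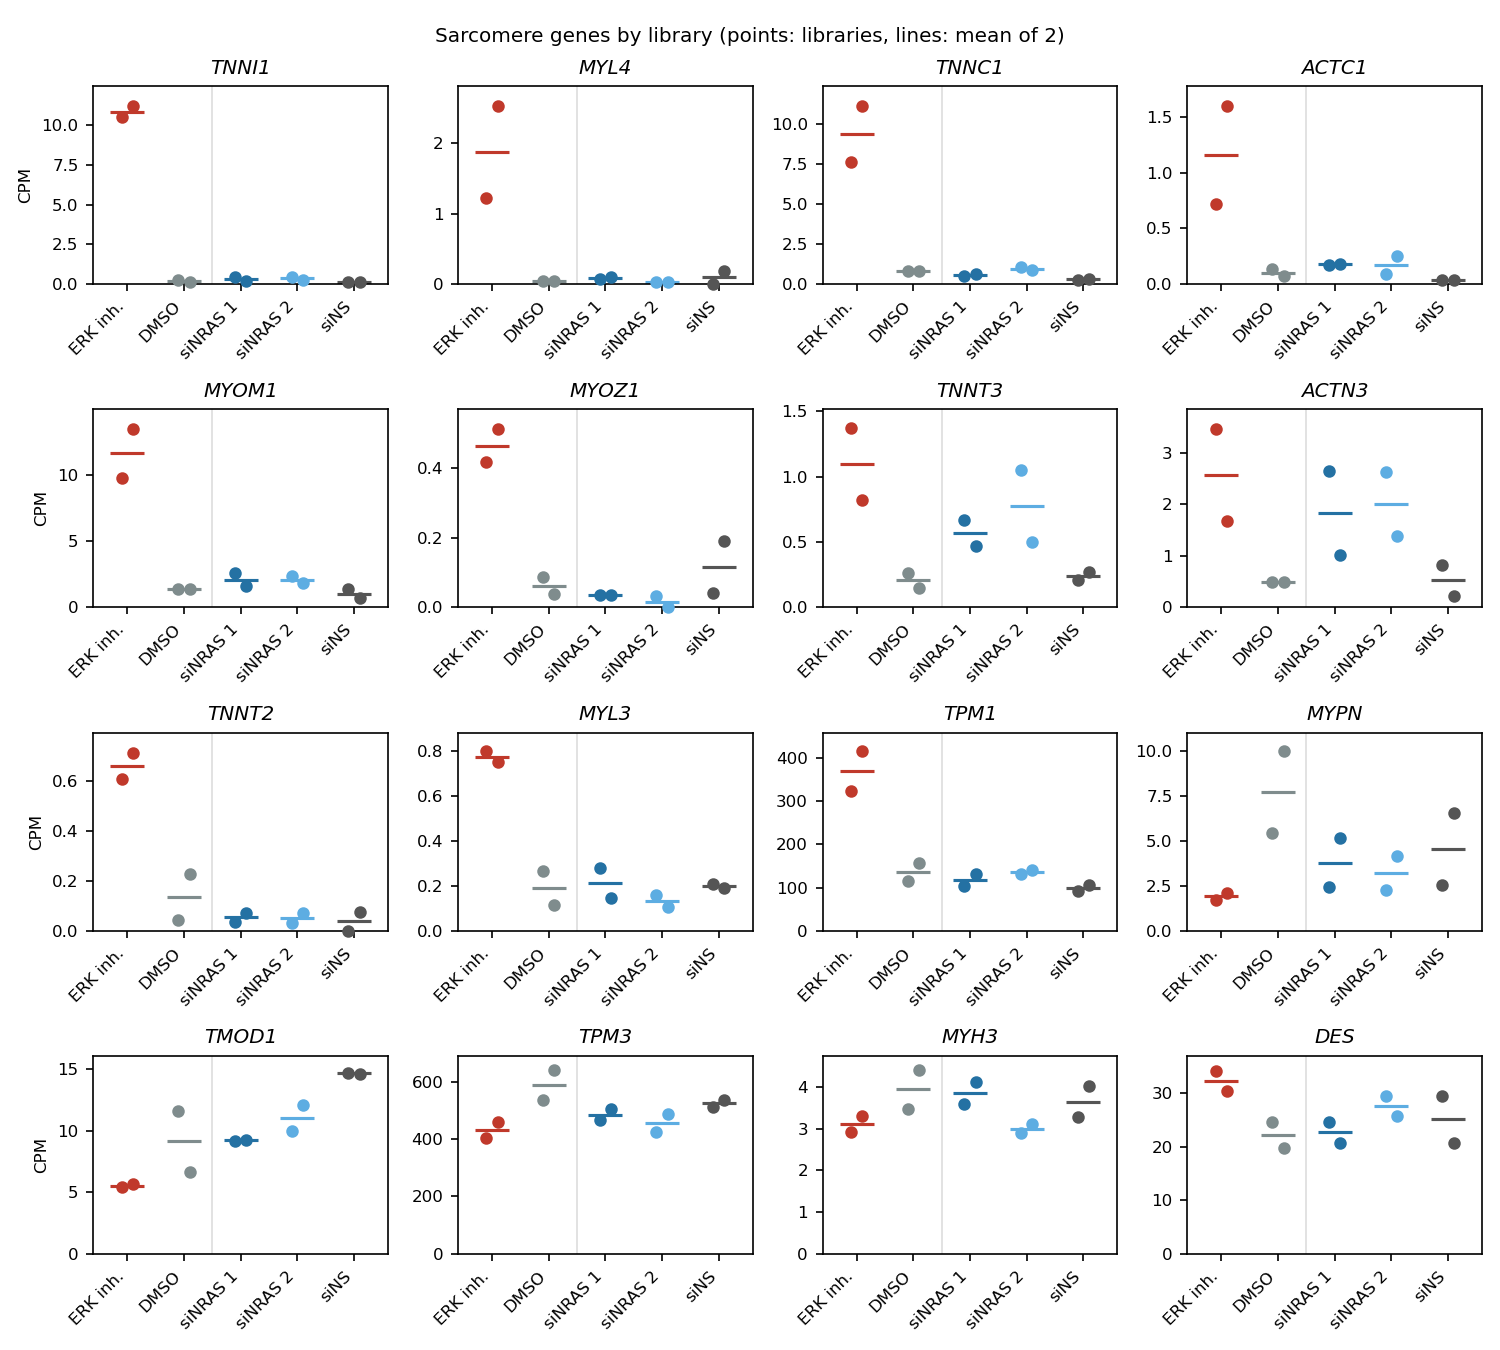
CPM of 16 of the genes in each library, on a linear axis from 0, with points for the 2 libraries of a group and a line for their mean; ERK inh. is SCH772984, siNRAS is NRAS siRNA and siNS is nonspecific siRNA. TNNI1 stands at 10.5 and 11.2 CPM with SCH772984 and under 0.5 CPM in the other groups, and MYPN is lower with SCH772984 than with DMSO.

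Promoters of 33 of the 50 genes, each 250 bases upstream to 50 bases downstream of the start in RefSeq (GRCh38.p14), were searched on both strands for muscle gene motifs. The E-box (CANNTG), bound by MYOD1 family factors, was in 27 of 33, 81.8%, against 68.9% of all 27303 promoters. The MCAT box (CATTCC), bound by TEAD factors, was in 9 of 33, 27.3%, against 14.0% of all. The MEF2 consensus was in 7 of 33, 21.2%, against 3.09% of all, and the CArG box, bound by SRF, was in 4 of 33, 12.1%, against 1.29% of all. A match is a description of letters, not a bound site. Of the 11 genes that rose, 6 had a promoter among the 33. Of these 6, 4 had an E-box, 2 a CArG box, 1 an MCAT box and 1 a MEF2 consensus. Whether motifs go with the rise was not tested. The 4 shown were picked because each carries a CArG box, an MCAT box or a MEF2 consensus and at least 1 E-box, all in capitals. Among them ACTC1, TNNT2 and MYOZ1 were tested only through the SCH772984 libraries. Positions count from the start, with negative values upstream, at the first base of the match. MYOM1 (chr18:3219919-3220218, minus strand) has a CArG box at -32 and E-boxes at -63 and 12. ACTC1 (chr15:34795500-34795799, minus strand) has a CArG box at -109 and an E-box at -56. TNNT2 (chr1:201377631-201377930, minus strand) has 5 E-boxes and an MCAT box at -81. MYOZ1 (chr10:73641425-73641724, minus strand) has an E-box at -99 and a MEF2 consensus at -72.
MYOM1: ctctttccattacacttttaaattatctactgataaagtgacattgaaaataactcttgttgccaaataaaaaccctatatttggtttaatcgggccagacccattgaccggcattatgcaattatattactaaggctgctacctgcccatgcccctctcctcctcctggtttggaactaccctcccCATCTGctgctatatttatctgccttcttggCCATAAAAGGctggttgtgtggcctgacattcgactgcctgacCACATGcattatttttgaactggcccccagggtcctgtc
ACTC1: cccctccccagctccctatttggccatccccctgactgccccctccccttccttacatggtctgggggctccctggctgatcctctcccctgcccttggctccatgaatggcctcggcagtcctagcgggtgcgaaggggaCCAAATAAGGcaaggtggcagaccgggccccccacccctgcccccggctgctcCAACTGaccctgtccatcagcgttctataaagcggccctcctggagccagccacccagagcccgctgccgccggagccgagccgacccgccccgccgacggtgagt
TNNT2: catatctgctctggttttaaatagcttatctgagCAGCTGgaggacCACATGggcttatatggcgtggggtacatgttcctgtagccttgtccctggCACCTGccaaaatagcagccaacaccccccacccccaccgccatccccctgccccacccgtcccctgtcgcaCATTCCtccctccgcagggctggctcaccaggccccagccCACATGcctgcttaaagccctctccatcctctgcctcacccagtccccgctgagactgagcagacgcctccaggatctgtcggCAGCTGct
MYOZ1: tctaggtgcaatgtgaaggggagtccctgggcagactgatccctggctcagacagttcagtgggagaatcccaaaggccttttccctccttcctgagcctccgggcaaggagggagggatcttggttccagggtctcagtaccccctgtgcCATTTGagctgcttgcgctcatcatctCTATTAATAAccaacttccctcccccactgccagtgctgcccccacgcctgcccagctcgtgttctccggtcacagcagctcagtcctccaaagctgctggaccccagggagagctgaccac
No match overlaps another in these promoters. The TPM1 and MYL3 windows held none of the 4 motifs.

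Knockdown of NRAS moved few of the genes past the threshold. With siRNA 1 none of the 25 tested genes was called, against 2.07% of all genes (0.894% higher and 1.17% lower), and 5 had an unadjusted edgeR p under 0.05; DESeq2 also called 0. With siRNA 2 only TNNC1 was called, against 6.43% of all genes (2.59% higher and 3.84% lower), and 8 had an unadjusted p under 0.05. TNNC1 had 1.05 and 0.890 CPM with siRNA 2, against 0.248 and 0.345 CPM with nonspecific siRNA, while siRNA 1 gave 0.493 and 0.649 CPM. Its log2 fold change was 1.69 (SE 0.38, edgeR adjusted p = 0.0310) with siRNA 2 and 0.93 (SE 0.42, edgeR adjusted p = 0.284) with siRNA 1. The siRNA 2 call was lost without siRNA 2 replicate 1 (edgeR adjusted p = 0.248), nonspecific siRNA replicate 1 (0.134) or nonspecific siRNA replicate 2 (0.0721). Both siRNA comparisons share the nonspecific siRNA libraries. That group was itself lower than DMSO for TNNC1, by 1.40 on the log2 scale (SE 0.40, edgeR adjusted p = 0.180), and the DMSO libraries, at 0.792 and 0.797 CPM, lay above siRNA 1 and below siRNA 2.

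In the mean of both siRNAs against nonspecific siRNA, 1 of 25 genes was called, against 7.95% of all genes (2.97% higher and 4.99% lower). TPM2 had 226 and 238 CPM with siRNA 1 and 206 and 230 CPM with siRNA 2, against 287 and 286 CPM with nonspecific siRNA, a mean log2 fold change of -0.35 (SE 0.09, edgeR adjusted p = 0.0434). All 4 knockdown libraries were below both nonspecific siRNA libraries. The TPM2 call was lost in 9 of 16 alternatives, among them RLE scaling and leaving out either nonspecific siRNA replicate (edgeR adjusted p = 0.165 and 0.118), siRNA 1 replicate 1 (0.129), siRNA 1 replicate 2 (0.0639), siRNA 2 replicate 1 (0.140) or either SCH772984 replicate (0.0573 and 0.0575). Of the genes higher with SCH772984, 8 had positive and 3 negative estimates here, and none passed the threshold. The 3 negative ones, MYL3, MYL4 and MYOZ1, were tested only through the SCH772984 libraries. The genes that rose and needed no such help, TNNI1, TNNC1, TNNT3, MYOM1, TPM1 and ACTN3, were all positive. Their unadjusted edgeR p ran from 0.00431 to 0.0364. Nonspecific siRNA minus DMSO was itself negative (log2) for TNNC1 (-1.4), TNNI1 (-0.54), TPM1 (-0.47) and MYOM1 (-0.41). It was positive for TNNT3 (0.22) and ACTN3 (0.09), and none of these was called. TPM1 had 104 and 131 CPM with siRNA 1 and 132 and 140 CPM with siRNA 2. With nonspecific siRNA TPM1 had 91.5 and 105 CPM, and with DMSO 115 and 156 CPM. The median estimate over all genes was -0.01. MYOZ1 had 1 count in each siRNA 1 library and 1 and 0 with siRNA 2, against 1 and 5 with nonspecific siRNA. Its mean log2 fold change was -2.08 (SE 0.90, edgeR adjusted p = 0.174), and MYL3 had -0.23 (SE 0.51, edgeR adjusted p = 0.824). ACTN3 had 2.64 and 1.01 CPM with siRNA 1 and 2.63 and 1.39 CPM with siRNA 2, against 0.828 and 0.230 CPM with nonspecific siRNA (mean log2 fold change 1.88, SE 0.60, edgeR adjusted p = 0.0801). For TNNT3 the mean log2 fold change was 1.47 (SE 0.49, edgeR adjusted p = 0.0938), for MYOM1 1.01 (SE 0.32, edgeR adjusted p = 0.0781) and for TNNI1 1.27 (SE 0.48, edgeR adjusted p = 0.124). MYL4 had 2 and 3 counts with siRNA 1 and 1 and 1 with siRNA 2, against 0 and 5 with nonspecific siRNA (mean log2 fold change -0.79, edgeR adjusted p = 0.670). For DES the mean log2 fold change was 0.00 (SE 0.16, edgeR adjusted p = 0.995).

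**Figure D3:**
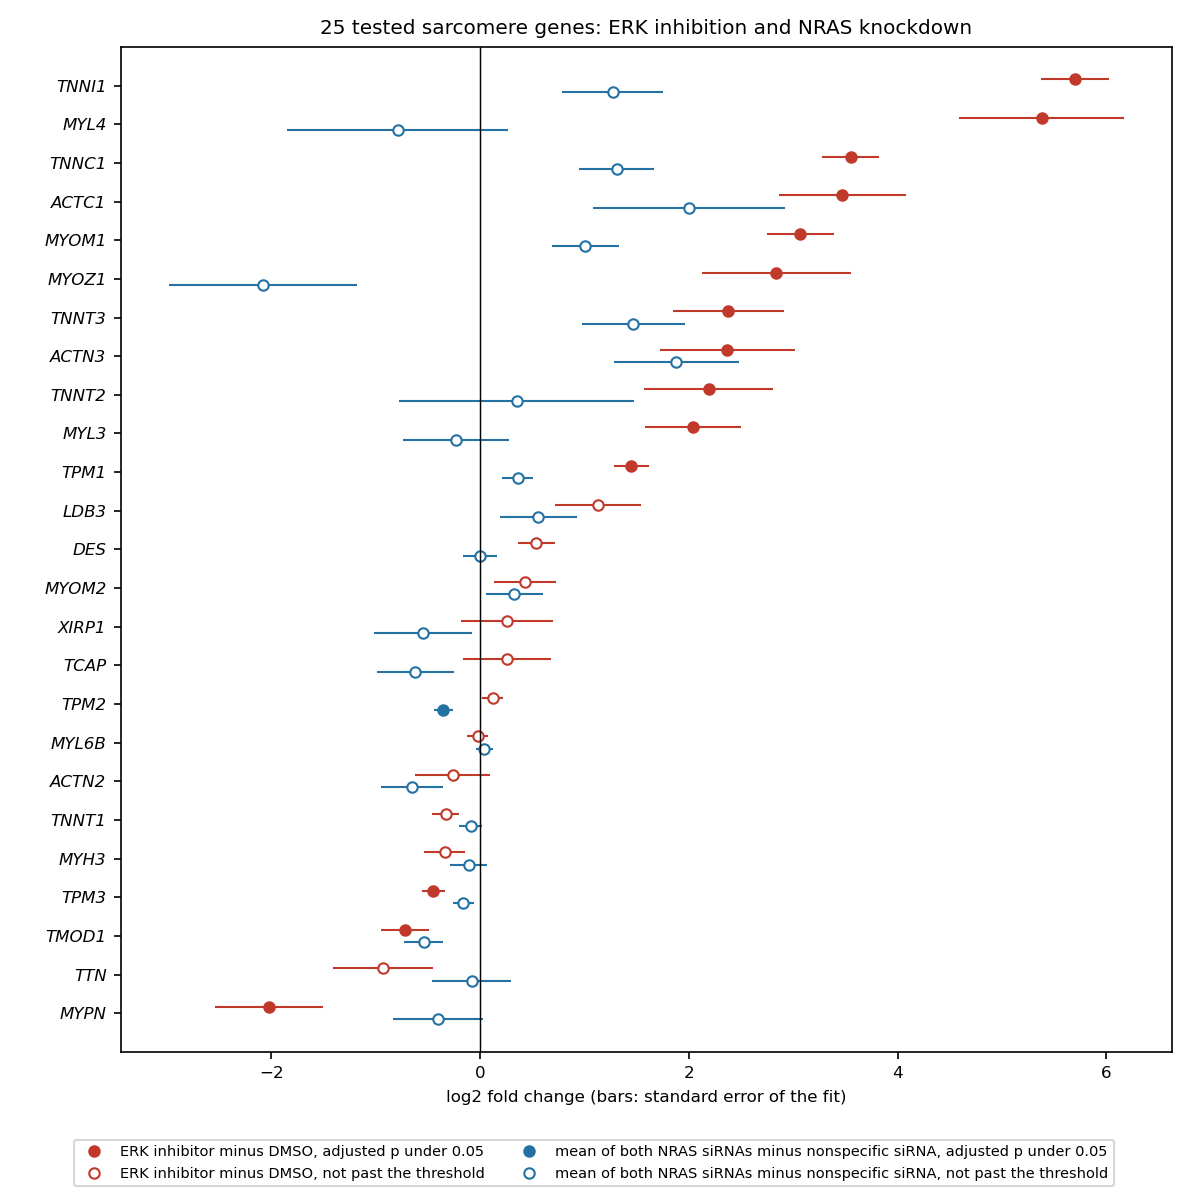
Log2 fold changes of the 25 tested genes with the standard error of the fit, for SCH772984 minus DMSO in red and for the mean of both NRAS siRNAs minus nonspecific siRNA in blue; filled points passed an adjusted p under 0.05. TNNI1 stands at 5.70 in red and 1.27 in blue, and 1 blue point, TPM2, is filled against 14 red ones.

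The difference between the responses was tested directly. The mean NRAS siRNA response minus the SCH772984 response was called below 0 for 6 of 25 genes and called above 0 for none (edgeR adjusted p under 0.05), against 4.57% lower and 2.73% higher, 7.30% in all, over all genes. The 6 genes were TNNI1, MYL4, TNNC1, MYOM1, MYOZ1 and TPM1. Of these, MYL4 and MYOZ1 were tested only through the SCH772984 libraries, so a response below that of SCH772984 was favoured in advance. TNNI1, TNNC1, MYOM1 and TPM1 would have been tested without those libraries too. For TNNI1 the difference was -4.43 (log2, SE 0.77, edgeR adjusted p = 0.0109). The arms also differ in time, at 48 h and 24 h, in transfection and in how far ERK output fell. DUSP6 fell by 1.24 on the log2 scale in the mean of both siRNAs and by 4.61 with SCH772984. These cannot be told apart from the agent. Between siRNA 1 and siRNA 2 none of the 25 genes was called, against 0.427% of all genes (1 with an unadjusted edgeR p under 0.05; DESeq2 called 0). Between nonspecific siRNA and DMSO none was called, against 0.379% of all genes (3 with an unadjusted edgeR p under 0.05; DESeq2 called 0).

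The members can also be set out by the muscle they are known from, in classes assigned after the values were seen. Genes tested only through the SCH772984 libraries were left out. Of the rest, 2 of 3 slow or cardiac genes rose, TNNI1 and TNNC1, and 2 of 2 fast genes, TNNT3 and ACTN3. The share of all genes called higher was 13.2%. The other slow gene, TNNT1, was not called, at 32.6 and 34.5 CPM with SCH772984 and 42.3 and 42.2 CPM with DMSO. The calls of TNNT3 and ACTN3 were each lost with some single libraries left out. The 1 embryonic gene left, MYH3, was not called. Sums of CPM were taken over whole classes, with the genes left out above put back. For the 10 fast genes, MYOZ1 among them, the sum was 5.78 and 3.27 with SCH772984, against 1.10 and 0.797 with DMSO. For the 12 slow or cardiac genes, ACTC1, MYL3 and TNNT2 among them, it was 53.3 and 60.2 with SCH772984, against 44.1 and 43.8 with DMSO. Most of each slow or cardiac sum was TNNT1, but TNNT1 was lower with SCH772984, so the larger sum came from other members. Some members lie together on the RefSeq map. TNNT2 and TNNI1, which both rose, have LAD1 listed between them on chromosome 1. In GENCODE LAD1 also overlaps TNNT2 on the same strand, by 4519 bases, so strand cannot tell reads of the shared bases apart. LAD1 had 5 and 1 counts with SCH772984 and 1 count in each DMSO library. On chromosome 19 TNNT1 neighbours TNNI3, and on chromosome 17 MYH1, MYH2 and MYH3 follow each other.

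Genes that work beside the sarcomere were described from lists chosen with earlier results of these data known. Over all genes 13.2% were called higher and 14.8% lower with SCH772984, and each list below is read against these shares. Of 23 tested sarcomere-associated genes 11 were higher and 1 lower; CRYAB, TRIM63 and CAPN3 were tested only through the SCH772984 libraries, and without them 8 of 20 rose and 1 fell. CRYAB, a small heat shock protein that guards desmin, had 317 counts in all with SCH772984, against 3 with DMSO, a ratio of 96.8 (95% interval 32.8 to 472, counting error only). HSPB7, another small heat shock protein of muscle, had 26.1 and 28.9 CPM with SCH772984, against 1.01 and 0.987 CPM with DMSO (log2 fold change 4.78, SE 0.25, edgeR adjusted p = 2.21e-06). TRIM63, a muscle ubiquitin ligase, had 28 and 24 counts with SCH772984, against 2 in each DMSO library. CAPN3, a muscle calpain, had 8 and 12 counts with SCH772984, against 1 and 2 with DMSO. The gene that fell, PDLIM5, with a log2 fold change of -0.50 (SE 0.10), was named after its values were seen. Of 12 tested genes of calcium handling and muscle metabolism 5 were higher and none lower; without PGAM2, tested only through the SCH772984 libraries, 4 of 11 rose. JPH2, a junction protein, was at 2.40 and 2.66 CPM with SCH772984, against 0.352 and 0.228 CPM with DMSO. PGAM2, the muscle phosphoglycerate mutase, had 21 and 24 counts with SCH772984, against 1 and 0 counts with DMSO. PYGM, muscle glycogen phosphorylase, and ATP2A1, the calcium pump of fast fibres, rose by log2 fold changes of 1.95 (SE 0.42) and 1.89 (SE 0.20). Of 10 tested muscle lineage genes, both factors and other markers, 3 were called, 30%, near the 28.0% over all genes. Of these 2 rose, CDH15 (log2 fold change 3.54, SE 0.44) and RBM24 (1.31, SE 0.24). The 1 that fell was CHRNA1, with 1 and 2 counts with SCH772984, against 17 and 14 counts with DMSO.

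Smooth muscle contractile genes also rose. Of 11 tested, 9 were higher with SCH772984 and none lower, against 13.2% and 14.8% over all genes; ACTG2 and MYOCD were tested only through the SCH772984 libraries, and without them 7 of 9 rose. The summed CPM of the 12 listed genes was 1943 to 2367 with SCH772984, against 794 to 876 with DMSO. CALD1 gave 1211 and 1512 CPM of it with SCH772984, against 496 and 399 CPM with DMSO. MYH11 was not tested, with 6 and 10 counts with SCH772984 and 5 counts in each DMSO library. The levels of MYLK and SMTN overlapped between these groups. ACTA2, the smooth muscle actin, had 12.7 and 25.9 CPM with SCH772984, against 1.5 and 1.14 CPM with DMSO (log2 fold change 3.88, SE 0.41, edgeR adjusted p = 0.000153). MYOCD, the smooth and cardiac muscle coactivator of SRF, had 61 and 102 counts with SCH772984, against 1 and 4 counts with DMSO. ACTG2 had 41 and 94 counts with SCH772984, against 2 and 3 with DMSO, and LMOD1 had a log2 fold change of 3.12 (SE 0.46). Of 15 cytoskeletal paralogs 3 were called, 20%, against 28.0% over all genes: 2 rose, ACTG1 (log2 fold change 0.52, SE 0.13) and MYL6 (0.39, SE 0.09), and VIM fell by 0.88 on the log2 scale (SE 0.11). Among other markers, the summed CPM of 7 neural genes was 436 to 483 with SCH772984, against 282 to 298 with DMSO, with OLIG2 at 0 everywhere. TUBB3, which is not confined to neurons, gave 470 and 423 CPM of it with SCH772984, against 275 and 289 CPM with DMSO. Of the 4 tested neural genes 2 were called higher and none lower, against 13.2% and 14.8% over all genes. SNAP25 had 7.12 and 7.68 CPM with SCH772984, against 3.56 and 3.07 CPM with DMSO. The summed CPM of 8 blood and endothelial genes was 1.33 in each SCH772984 library, against 0.304 to 0.572 with DMSO. VWF gave 0.761 and 0.785 CPM of it with SCH772984, against 0.308 and 0.0759 CPM with DMSO. It was the only gene of that list tested, and only through the SCH772984 libraries. The summed CPM of 7 epithelial genes was 227 to 365 with SCH772984, against 234 to 350 with DMSO. The part of these markers in the sarcomere result was not tested.

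In the mean of both siRNAs, where 2.97% of all genes were higher and 4.99% lower, 2 of the 23 sarcomere-associated genes rose, HSPB7 (log2 fold change 1.46, SE 0.26) and CAP2 (1.03, SE 0.14), and 1 fell, PDLIM5 (-0.35, SE 0.09). None of the 12 genes of calcium handling and metabolism was called, with 3 at an unadjusted edgeR p under 0.05. LMOD1 was the 1 smooth muscle gene that rose (1.76, SE 0.41), and of the paralogs ACTN4 (-0.54, SE 0.09) and VIM (-0.51, SE 0.10) fell. Among the muscle lineage genes RBM24 rose (1.47, SE 0.22) and CHRNA1 fell (-1.88, SE 0.42).

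**Figure D4:**
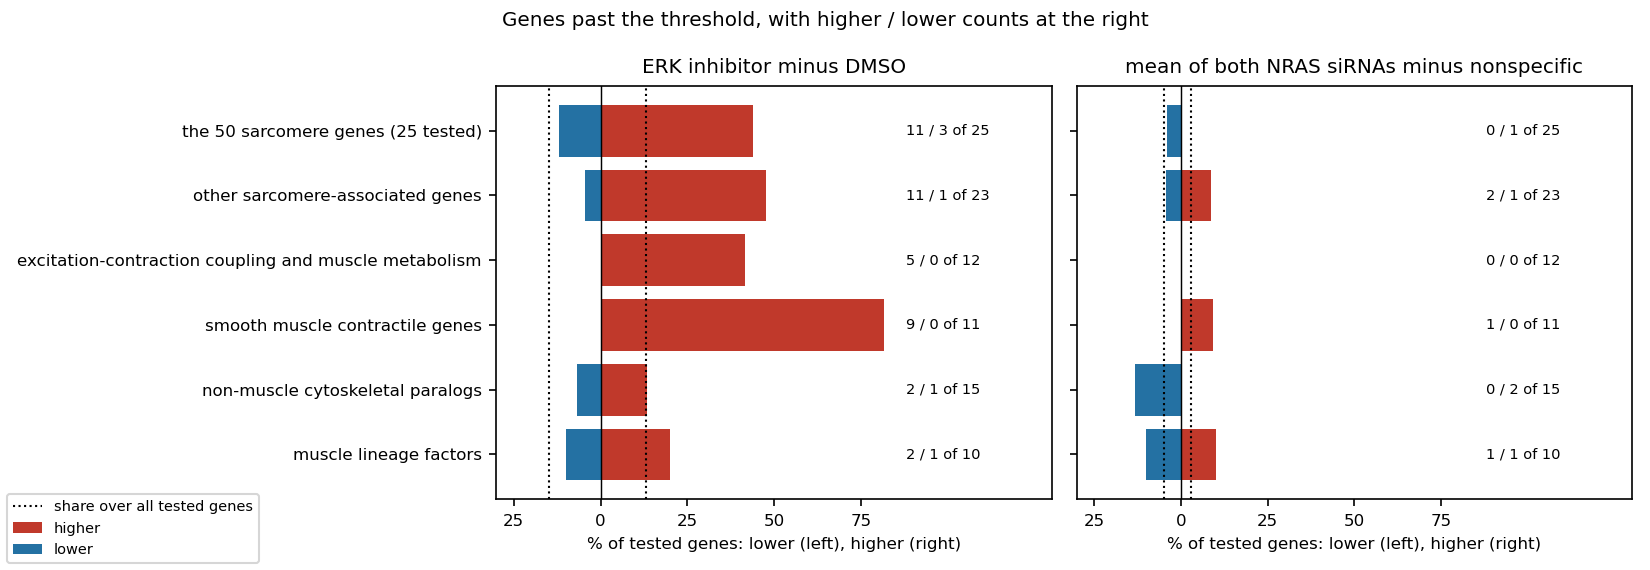
Share of tested genes called higher (right, red) and lower (left, blue) in the 50 genes and 5 related lists, for SCH772984 minus DMSO and for the mean of both NRAS siRNAs minus nonspecific siRNA; dotted lines are the shares over all tested genes and the numbers are higher / lower of tested. The 50 genes show 11 higher and 3 lower of 25 with SCH772984, and 0 higher and 1 lower with the siRNAs.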

How the data were processed

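Read counts per gene were deposited by the authors, 1 column per library. Per the submitters' processing notes, bcl2fastq, TopHat2, SAMtools and HTSeq were used with hg19 or GRCh37; versions, annotation and strand setting: not given in the sources used here. The TruSeq stranded mRNA kit was used, per the labels' protocols. The 5 summary lines that name no gene, 38.3% to 39.4% of reads, were left out. Genes were kept by filterByExpr (minimum count 10), scaled by TMM and fitted in edgeR 4.0.16 (R 4.3.3) with 1 mean per group and 5 residual degrees of freedom; the code was tested on simulated data. CPM uses the TMM-scaled library sizes (factors 0.968 to 1.03), a scale chosen after values on plain totals had been seen; ratios of few counts use plain library totals. Intervals cover counting error only. Alternatives were DESeq2 1.42.0, RLE and upper-quartile scaling, no filter, a replicate block, only the groups compared, and leaving out each library. The members and lists were chosen with earlier results of these data known. Values per library are given for called members, at most 12 per comparison by absolute log2 fold change, and for 10 members by name. By the same measure at most 4 called genes are named per list and comparison. Some others on the lists, CALD1 and SNAP25 among them, were named after their values were seen.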

Additional observations from a re-analysis of the deposited data

Results flagged for a closer look

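For 6 genes the response to NRAS knockdown and the response to SCH772984 differed in a direct test of the difference (edgeR, adjusted p under 0.05), each time lower for knockdown. The mean siRNA response minus the inhibitor response was -6.17 on the log2 scale for MYL4, -4.92 for MYOZ1, -4.43 for TNNI1, -2.24 for TNNC1, -2.06 for MYOM1 and -1.09 for TPM1. The edgeR adjusted p was 0.0474, 0.0365, 0.0109, 0.0286, 0.0282 and 0.0225 in the same order. MYL4 and MYOZ1 were tested only through the SCH772984 libraries, so a lower response to knockdown was favoured in advance for them. MYL4 and MYOZ1 rest on at most 5 counts per library outside the SCH772984 group, and without nonspecific siRNA replicate 2 the MYL4 difference was -1.68 (edgeR adjusted p = 0.909) and that of MYOZ1 -3.49 (0.286). TNNI1 lost its call only without nonspecific siRNA replicate 2 (0.0634), TPM1 without that library (0.0554), SCH772984 replicate 2 (0.0658) or DMSO replicate 1 (0.0707). TNNC1 lost it without either DMSO or either nonspecific siRNA replicate (0.0702 to 0.131), and MYOM1 without SCH772984 replicate 2, either DMSO replicate or nonspecific siRNA replicate 1 (0.0671 to 0.148). MYL4 lost it in 9 and MYOZ1 in 8 of 14 settings, all of them with a library left out. The arms differ in duration and transfection as well as in agent, which cannot be told apart.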

How the results depend on the processing

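With SCH772984, 14 genes were called and the 6 alternatives besides leaving out a library gave 12 to 17; leaving out a library gave 6 to 15, with 6 without SCH772984 replicate 1 and 9 without DMSO replicate 2. ACTC1, MYL4, MYOM1, TNNC1, TNNI1 and TPM1 passed in every setting. For siRNA 1 the count of 0 became 1 with no filter. For siRNA 2 the count of 1 became 6 with no filter, 3 with DESeq2 and 0 with only the groups compared, and was 0 to 2 with a library left out (0 without siRNA 2 replicate 1, nonspecific replicate 1 or nonspecific replicate 2). For the mean of both siRNAs the count of 1 became 0 with RLE, 2 with upper-quartile scaling, 5 with no filter, 3 with DESeq2 and 0 with only the groups compared, and was 0 to 2 with a library left out. For the difference of responses the count of 6 was 1 to 5 with a library left out, with 1 without DMSO replicate 1 or nonspecific replicate 2 and 2 without SCH772984 replicate 2 or DMSO replicate 2. Upper-quartile scaling shifted the median of all genes by 0.06 (log2) and gave 2210 higher and 1725 lower calls with SCH772984, against 1948 and 2180. Of 343 values for 22 gene results, 70 lost the call and none reversed; the causes were not tested. DESeq2 gave no adjusted p for 3 of these results. For the difference of responses, fitting only the groups compared is the same fit and gave no further value. Depth limits the 25 untested genes.

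The replicate numbers are shared between groups, but no label says that they pair samples, and the correlation of replicate differences was 0.0737 to 0.448 over pairs of groups. With the replicate block the counts were 17 for SCH772984, 2 for siRNA 1, 5 for siRNA 2, 5 for the mean, 10 for the difference of responses, 0 between siRNAs and 1 between controls.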
